A study of Homo sapiens with 3 samples.

Results

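The genes described here encode the proteins of the tight junction, the desmosome and the gap junction. They were chosen by biotype and name, as the protein-coding claudins, desmogleins, desmocollins, plakophilins, connexins and zonula occludens genes, together with DSP, JUP, OCLN, F11R, PERP and MARVELD2. In all, 66 of the 58735 genes listed, of which 19951 were protein-coding, met this rule. They comprise 24 claudins, 3 other tight junction membrane proteins, 3 tight junction scaffolds, 7 desmosomal cadherins, 6 desmosomal plaque genes, PERP and 22 connexins. The rule itself uses no measured value, although earlier results of these data were known when it was set.

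RNA-seq was available for 3 libraries of DU145, a human prostate carcinoma line that grows without androgen. The control was 1 library and 2 libraries were labelled PD-L1 knockdown, made with PD-L1 shRNA 1 and PD-L1 shRNA 2. The knockdown lines were made with pLKO.1 lentivirus, with the empty vector as the control in general, but the methods do not say whether the sequenced control carries it. Stable lines were kept under puromycin, and the methods list the sequence of 1 hairpin only. The labels give DMEM as the medium and the methods EMEM, the series text also names the thyroid line BCPAP, and the control's count column is headed RBM45. The question behind the design is which genes follow PD-L1 in castration-resistant prostate cancer cells.

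Tight junctions seal the space between epithelial cells. Claudins form the strands of the seal, occludin and tricellulin lie in or beside those strands, and the zonula occludens proteins tie them to actin. Desmosomes rivet neighbouring cells together through desmogleins and desmocollins, whose tails bind plakoglobin and plakophilins and, through desmoplakin, the keratin filaments. Gap junctions are channels built from connexins that let ions and small molecules pass from cell to cell. Epithelia express different mixtures of these families.

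The count totals were 14733088 for the control, 14738298 for the library labelled knockdown 1 and 15786457 for the library labelled knockdown 2. The 66 junction genes took 0.249%, 0.226% and 0.245% of them. Counts of CD274, which encodes PD-L1, were 204, 213 and 224, for a log2 fold change of 0.05 with a standard error (SE) of 0.20 and an adjusted p of 0.947 in edgeR's quasi-likelihood test. The targeted transcript was thus not reduced where the label says PD-L1 knockdown, so each library is named by its label below and every direction is one between labelled libraries. The epithelial markers EPCAM, KRT8, KRT18, KRT19 and CDH1 were all present, with FPKM from 20.3 for EPCAM to 186 for KRT19. The luminal prostate markers KLK3, KLK2 and TMPRSS2 had 0 counts in all libraries, while the basal markers KRT5 and TP63 were also at 0. The summed FPKM of the fibroblast, endothelial, leukocyte and cardiac marker lists stayed below 1 in every library, the highest being 0.984 for the fibroblast list.

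FPKM, the counts scaled to gene length and sequencing depth, allow levels of different genes to be set side by side. By this scale 26 of the 66 junction genes, or 39.4%, had an FPKM of at least 1 in every library, against 10620 of the protein-coding genes, or 53.2%. An FPKM of at least 10 in every library was reached by 11 junction genes only. At the other end, 17 had 0 counts in all 3 libraries, which at this depth allows up to 0.204, 0.204 and 0.190 CPM (counts scaled to the library total), the level of 3 counts. Among these were CLDN8, CLDN17, CLDN19, CLDN22, CLDN25, CLDN34, DSC1, DSG4, GJA4, GJA5, GJA10, GJB1, GJD2, GJE1 and the read-through gene GJA9-MYCBP. Such limits, and all intervals given here, cover counting error only. They need not hold for GJA9-MYCBP and CLDN22, because the treatment of reads shared between genes is not stated. GJA9-MYCBP shares 58.41% of its exon bases with GJA9 and 30.05% with MYCBP on the same strand. MYCBP had 275, 249 and 240 counts. CLDN22 is wholly covered by WWC2 on the opposite strand. For these genes 0 counts may reflect how reads were assigned. Because the cells were sequenced in bulk, fewer cells with a transcript cannot be told apart from less transcript per cell.

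**Figure D1:**
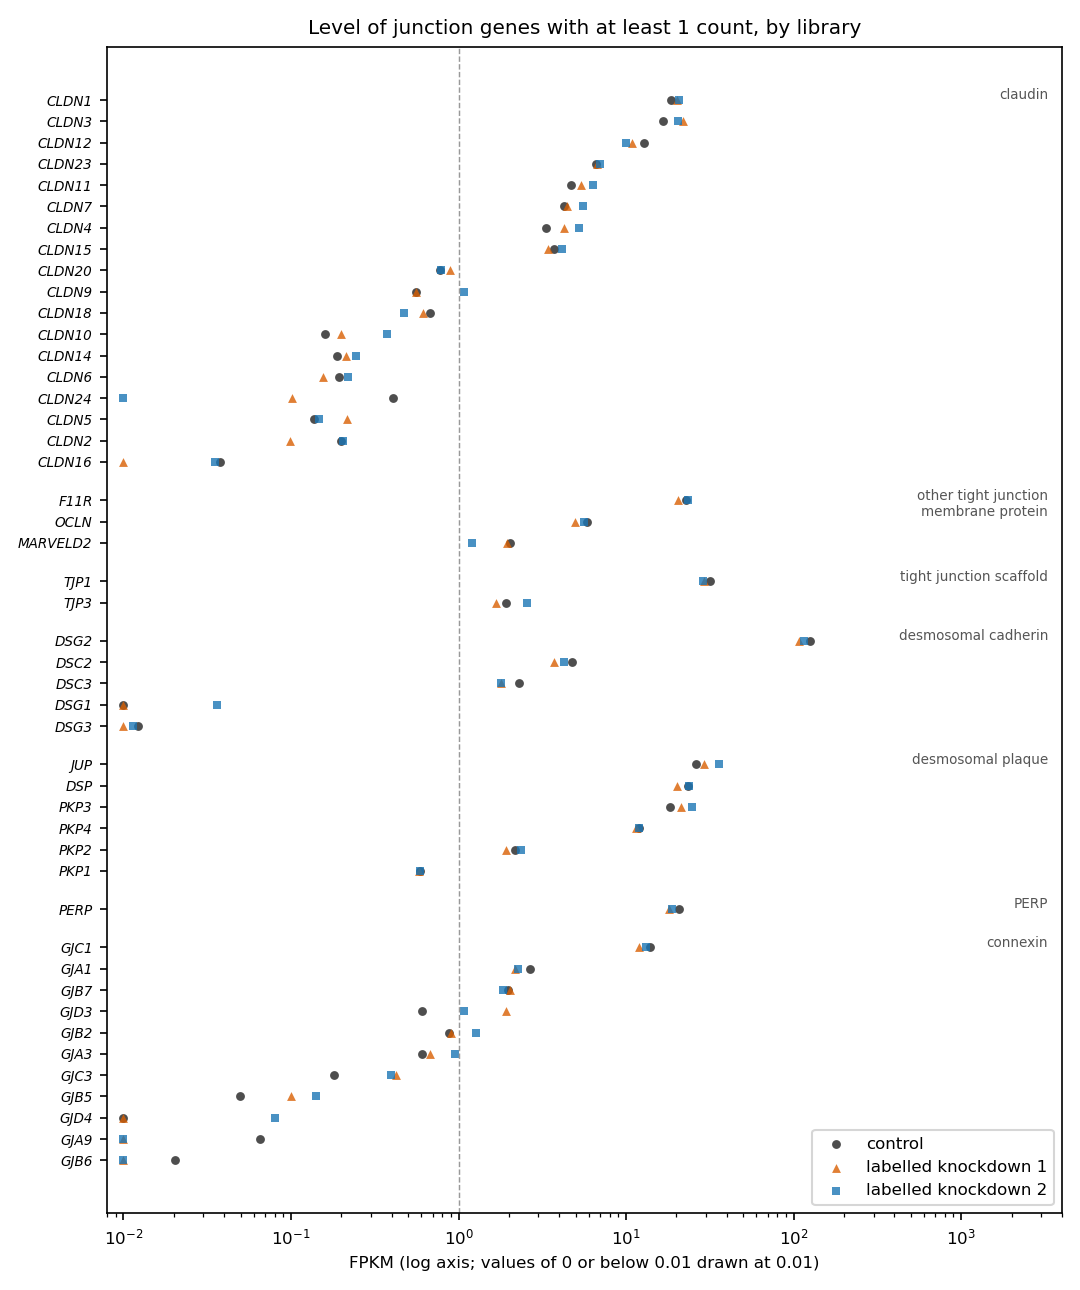
FPKM (log axis) of 46 junction genes with at least 1 count, 1 row per gene within its family, with a circle for the control, a triangle for the library labelled knockdown 1 and a square for the library labelled knockdown 2. DSG2 stands alone above 100, 11 genes lie at 10 or more in every library, and for most well-counted genes the 3 points nearly coincide.

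The claudin transcripts of DU145 were dominated by CLDN1, CLDN3 and CLDN12. CLDN1, the classic barrier-forming claudin of epithelia, had an FPKM of 18.7 in the control, 20.1 in the library labelled knockdown 1 and 20.7 in the library labelled knockdown 2. It made up 25.2%, 25% and 25% of the summed claudin FPKM, a share that stayed within a narrow range. CLDN3, another sealing claudin, had 16.5, 22.0 and 20.3, so that the control lay below both of the others. CLDN12, a claudin without the usual binding motif for zonula occludens proteins, had 12.8, 10.9 and 9.98, with the control above both of the others. Its share of the claudin FPKM was 17.3%, 13.6% and 12.1%. CLDN12 shares 5.15% of its exon bases with GTPBP10 and 2.98% with CDK14 on the same strand. GTPBP10 had 411, 324 and 348 counts and CDK14 had 380, 387 and 321, so the CLDN12 values carry that uncertainty.

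The next claudins formed a middle tier. CLDN23 had an FPKM of 6.64, 6.67 and 7.0, which differ by less than their counting intervals. CLDN11, best known from myelin and the testis, had 4.69, 5.42 and 6.34. CLDN7, an epithelial claudin that also lies along the lateral membrane, had 4.24, 4.45 and 5.51, and CLDN15, which forms a cation channel in the gut, had 3.70, 3.44 and 4.16. CLDN4, the partner of CLDN3 in many epithelia and like it a receptor for a Clostridium perfringens toxin, had 3.31, 4.24 and 5.25. Neighbours in this tier overlapped between libraries, since CLDN4 lay below CLDN15 in the control and above it in the libraries labelled knockdown 1 and knockdown 2. The remaining 10 claudins with any count lay below an FPKM of 1 in at least 1 library, and CLDN9 alone of them reached 1 in any, with 0.558, 0.561 and 1.08. CLDN18, known from the stomach and lung, was the most counted of these 10, with 39, 35 and 29 counts, and CLDN10 had 8, 10 and 20 but shares 46.1% of its exon bases with DZIP1 on the opposite strand.

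Summed over the family, claudin FPKM was 74.0 in the control, 80.2 in the library labelled knockdown 1 and 82.8 in the library labelled knockdown 2. Of 16 claudins with at least 10 counts over the libraries, the minimum for testing, 12 had a higher and 4 a lower fitted value in the libraries labelled PD-L1 knockdown, with a median log2 fold change of 0.18. Over all 19849 genes tested the median was 0.00. None of the 16 passed at an adjusted p under 0.05, where 0.353% of all genes tested did. In edgeR 3 of the 16 had an unadjusted p under 0.05, against 11.7% of all genes, namely CLDN4 and CLDN3 on the higher and CLDN12 on the lower side.

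Among the membrane proteins beside the claudins, F11R, the junctional adhesion molecule JAM-A, led with an FPKM of 22.9, 20.5 and 23.3. OCLN, which encodes occludin, had 5.85, 4.93 and 5.64, and MARVELD2, which encodes tricellulin of the corners where several cells meet, had 2.03, 1.94 and 1.20. F11R shares 36.6% of its exon bases with the gene AL591806.3, to which 10, 5 and 1 counts were assigned, and 8.65% of the 31-base words of OCLN also occur in OCLNP1, a related copy, so these values carry that uncertainty. Of the scaffolds, TJP1, which encodes ZO-1, had an FPKM of 31.8, 29.1 and 28.9 and was far above TJP3 (ZO-3) with 1.92, 1.68 and 2.57.

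MARVELD2 was the member on which the 2 libraries labelled PD-L1 knockdown differed most clearly downwards. Its counts were 162 in the control, then 154 and 102 in the libraries labelled knockdown 1 and knockdown 2. The library labelled knockdown 2 held 0.616 times the level of the library labelled knockdown 1, with an exact 95% counting interval from 0.475 to 0.796, while the library labelled knockdown 1 differed from the control by less than the counting error (ratio 0.955, 0.761 to 1.20). TJP3 went the other way, with 120, 105 and 171 counts and a ratio of 1.51 (1.18 to 1.95) between the libraries labelled knockdown 2 and knockdown 1. Such ratios compare libraries, not conditions.

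DSG2, the desmoglein of simple epithelia and of the heart, was the most abundant junction transcript, with an FPKM of 125, 107 and 115. Its mean lay at percentile 99.0 of the protein-coding genes, and it held nearly the whole desmosomal cadherin signal, 95% of the summed FPKM in the library labelled knockdown 2. DSC2, its usual desmocollin partner, had 4.76, 3.73 and 4.28, and DSC3, a desmocollin of stratified epithelia, had 2.31, 1.78 and 1.80. DSG1 and DSG3, the desmogleins of the skin and the targets of pemphigus antibodies, had 0, 0 and 3 and 1, 0 and 1 counts.

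All 7 desmosomal cadherin genes lie in a single cluster on chromosome 18 of the GRCh38 assembly, in the order DSC3, DSC2 and DSC1 on the minus strand and DSG1, DSG4, DSG3 and DSG2 on the plus strand. The expressed genes sit at the ends of this array, DSC3 (18:30990008-31042815) and DSC2 (18:31058840-31102522) at one and DSG2 (18:31498043-31549008) at the other. DSG3 ends 19341 bases before DSG2 begins, yet DSG2 had 11533, 9824 and 11273 counts and DSG3 none or 1. The 116 bases before the earliest annotated start of each of the desmogleins DSG2, DSG3 and DSG1 are printed here because these neighbours, on the same strand, differ so widely in level. They come from RefSeq on GRCh38.p14, plus strand, at chr18:31497927-31498042, chr18:31447625-31447740 and chr18:31317973-31318088, with each CpG dinucleotide in capitals.
DSG2: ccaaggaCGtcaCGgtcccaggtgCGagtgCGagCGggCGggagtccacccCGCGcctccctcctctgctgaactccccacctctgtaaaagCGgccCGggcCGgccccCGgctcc
DSG3: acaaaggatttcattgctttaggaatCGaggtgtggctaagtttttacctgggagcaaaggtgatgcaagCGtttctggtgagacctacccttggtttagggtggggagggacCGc
DSG1: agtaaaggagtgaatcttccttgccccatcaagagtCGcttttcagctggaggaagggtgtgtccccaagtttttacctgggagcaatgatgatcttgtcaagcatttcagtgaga
The DSG2 stretch holds 12 CpG dinucleotides in 73.3% GC, against 3 in 50% GC for DSG3 and 1 in 46.6% GC for DSG1. The stretches of DSG3 and DSG1 share an unbroken run of 20 bases, aagtttttacctgggagcaa, whereas the longest run either shares with DSG2 is 6 bases. These are descriptions of the sequence and were not tested against expression.

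Against the control, DSG2 was at 0.856 times its level in the library labelled knockdown 1 (0.833 to 0.879) and at 0.913 times in the library labelled knockdown 2 (0.889 to 0.937). DSC2 was at 0.784 (0.708 to 0.867) and 0.893 (0.811 to 0.982), and DSC3 at 0.772 (0.634 to 0.938) and 0.776 (0.640 to 0.939). All 3 expressed cadherins of the cluster were therefore below the control in both libraries by more than the counting error, as were 13.7% of all genes averaging 100 counts or more. Both ratios of a gene share the same control library, so they are not independent. The fit across genes, which adds the spread between libraries, gave log2 fold changes of -0.18 for DSG2 (SE 0.11), -0.25 for DSC2 (SE 0.14) and -0.37 for DSC3 (SE 0.20), with adjusted p of 0.523, 0.475 and 0.461 in edgeR's quasi-likelihood test. None of them passed. With the trends of each library with gene length and GC content removed, the log2 fold changes were -0.06, -0.07 and -0.20.

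The plaque genes all lay below DSG2, with JUP, DSP and PKP3 the highest of them. JUP, which encodes plakoglobin and links the cadherins to the plaque, had an FPKM of 26.2, 29.4 and 35.9. DSP, which encodes desmoplakin and anchors keratin, had 23.4, 20.2 and 23.6. PKP3, the plakophilin found in most epithelia, had 18.4, 21.2 and 24.6, and PKP4 had 11.9, 11.4 and 12.0. PKP2, the plakophilin of simple epithelia and the heart, had 2.18, 1.91 and 2.36, and PKP1, that of the skin, had 0.586, 0.577 and 0.591. PERP, a desmosomal membrane protein and p53 target, had 20.7, 18.1 and 18.8.

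JUP and PKP3 were the plaque genes whose control lay below both other libraries. JUP had 1926, 2146 and 2806 counts, a ratio to the control of 1.12 (1.05 to 1.19) in the library labelled knockdown 1 and 1.36 (1.28 to 1.44) in the library labelled knockdown 2. PKP3 had 1033, 1185 and 1471 counts and ratios of 1.15 (1.06 to 1.25) and 1.33 (1.23 to 1.44). For each of them the library labelled knockdown 2 was also above the library labelled knockdown 1, JUP by 1.22 times (1.15 to 1.29) and PKP3 by 1.15 times (1.07 to 1.25). DSP had 3507, 3017 and 3769 counts and PKP2 had 228, 199 and 263, each with its lowest value in the library labelled knockdown 1. PKP4 differed from the control by less than the counting error in both libraries.

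GJC1 was the most abundant connexin transcript, with 46.95%, 40.85% and 43.02% of the summed connexin FPKM. GJC1, which encodes connexin 45 of the cardiac conduction system and vascular muscle, had an FPKM of 13.8, 11.9 and 13.2. GJA1, which encodes connexin 43, the most widely expressed connexin, had only 2.66, 2.18 and 2.26, and GJB7 had 1.97, 2.03 and 1.86. GJB2, the connexin most often mutated in inherited deafness, had 0.873, 0.903 and 1.27. GJB1, a connexin of the liver and of secretory epithelia, had 0 counts.

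The summed connexin FPKM was 29.5, 29 and 30.6, nearly level between the libraries. Of the 22 connexins, 9 had 0 counts in all libraries, 5 more fell under the minimum of 10 counts and 8 were tested. No tested connexin had an unadjusted p under 0.05 in edgeR, where 11.7% of all genes did, or in DESeq2, where 2.29% did. The fitted log2 fold changes ran from -0.27 for GJA1 to 1.27 for GJD3. GJD3 rests on 8, 25 and 15 counts, and 82.8% of its exon bases are overlapped from the opposite strand by AC080112.1, which had 156, 148 and 170 counts. The counting is not stated to use strand, so reads of the pair cannot be told apart.

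Of the 66 junction genes, 40 reached the minimum of 10 counts and were tested, 17 had 0 counts and 9 were in between. The minimum was on the sum over all libraries. With p adjusted by Benjamini and Hochberg's method over all genes in the edgeR quasi-likelihood test, 0 junction genes had an adjusted p under 0.05, where 0.353% of all genes tested did. The lowest adjusted p of a member was 0.224. At an unadjusted p under 0.05 there were 5 of 40 in edgeR against 11.7% of all genes, and 0 of 40 in DESeq2 against 2.29% of all genes. Of these 5, 4 were higher and 1 was lower than in the control, as 6.82% and 4.92% of all genes were. With an absolute log2 fold change above 1 in addition there were 0 members in edgeR, against 2.48% of all genes in edgeR. DESeq2 also gave 0 members, and the share of all genes in DESeq2 was not computed at this threshold. The 12.5% of members at an unadjusted p under 0.05 is near the share of all genes, and the members had a median log2 fold change of 0.04 over the 40.

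With a single control, the spread in this test is that between the 2 other libraries, which carry different shRNAs, and nothing states that libraries came from separate cultures. Each gene has 1 residual degree of freedom, and the fit pooled the spread over all genes of like count. The median weight given to this pooled spread was infinite. For a typical gene the p-value therefore rests on the pooled spread and not on the gene's own.

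The 5 members were CLDN4, JUP, PKP3, CLDN12 and CLDN3. For CLDN4 (7:73799542-73832693, plus strand) the counts were 231, 295 and 390 and the log2 fold change was 0.52 (SE 0.19). Its counts were lowest in the control, and its adjusted p was 0.224 in edgeR. JUP (17:41754604-41786931, minus strand) had a log2 fold change of 0.31 (SE 0.12) with an adjusted p of 0.266, and PKP3 (11:392614-404908, plus strand) had 0.31 (SE 0.13) with an adjusted p of 0.324 in edgeR. CLDN3 (7:73768997-73770270, minus strand) had 313, 414 and 409 counts and 0.35 (SE 0.18), with an adjusted p of 0.417 in edgeR. CLDN12 (7:90383721-90513402, plus strand) had 1284, 1084 and 1063 counts and -0.30 (SE 0.13), with an adjusted p of 0.333 in edgeR. None of them passed the adjusted threshold, and the lowest unadjusted p among them in DESeq2's Wald test was 0.0627, that of JUP.

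CLDN3 and CLDN4 are neighbours, 29272 bases apart and on opposite strands, and their control library was the lowest for each. The ratio to the control was 1.33 (1.14 to 1.54) and 1.22 (1.05 to 1.42) for CLDN3 and 1.28 (1.08 to 1.53) and 1.58 (1.34 to 1.86) for CLDN4. Only for CLDN4 did the library labelled knockdown 2 exceed the library labelled knockdown 1 beyond counting error (ratio 1.23, 1.05 to 1.43).

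Among the 26 members averaging 100 counts or more, 4 were above the control in both libraries beyond counting error, namely CLDN3, CLDN4, JUP and PKP3, and 6 were below it in both, namely CLDN12, DSC2, DSC3, DSG2, PERP and TJP1. Over all 10861 such genes the shares were 16.8% and 13.7%, against 15.4% and 23.1% of the members. Between the 2 libraries labelled PD-L1 knockdown, 11 members were higher and 2 lower in the library labelled knockdown 2, or 42.3% and 7.69%, against 18.1% and 19.4% of all such genes. No test of these shares was made.

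**Figure D2:**
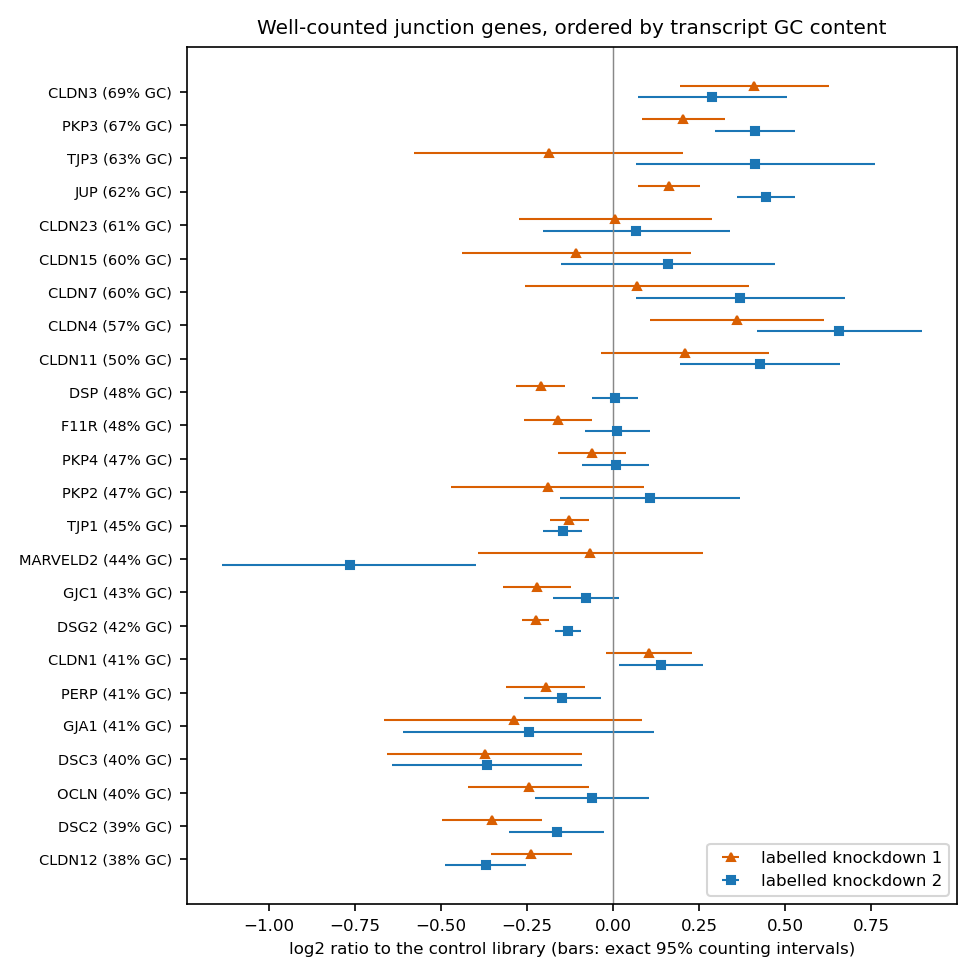
Log2 ratio of the libraries labelled knockdown 1 (triangles) and knockdown 2 (squares) to the control for 24 of the junction genes averaging 100 counts or more, ordered by transcript GC content from 69% at the top to 38% at the bottom, with bars for exact 95% counting intervals. Points on the right of 0 are mostly at the top and points on the left mostly at the bottom, MARVELD2 being the farthest left in the library labelled knockdown 2 only.

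Base composition moved with the differences. Of the 26 well-counted members, all 9 whose longest transcript has at least 55% GC had a higher fitted value in the libraries labelled PD-L1 knockdown, with a median log2 fold change of 0.23. From 45% to 55% GC, 2 of 6 were higher. Below 45% GC, 1 of 11 was higher, CLDN1, and the median was -0.18. Spearman's rho between GC content and log2 fold change was 0.82 over these 26 genes, which share the same 3 libraries. Over all well-counted genes the same classes held 88.3%, 57.0% and 18.4% of higher values and rho was 0.671 across 10859 genes. The classes ranked in the same order for the members and for all genes, and no test compared them.

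After the trends of each library with gene length and GC content were removed, 5 of the 9 GC-rich members, 3 of the 6 intermediate and 2 of the 11 GC-poor members were higher. Their median log2 fold changes were 0.05, 0.00 and -0.06. All well-counted genes, in bins from 34% to 73% GC, had medians between -0.04 and 0.05 in this fit. In the bins from 34% to 46% GC the medians lay between -0.01 and 0.02. The share of all genes that were higher in each class was not computed for this fit. CLDN4 went from a log2 fold change of 0.52 to 0.35, JUP from 0.31 to 0.09, PKP3 from 0.31 to 0.05, CLDN3 from 0.35 to 0.11 and CLDN12 from -0.30 to -0.11. In this fit 0 members had an unadjusted p under 0.05 in edgeR, against 6.45% of all genes, that of CLDN4 being 0.0588. MARVELD2 with -0.31 and CLDN11 with 0.30 changed little. The part of base composition in any single difference was not tested beyond this fit.

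**Figure D3:**
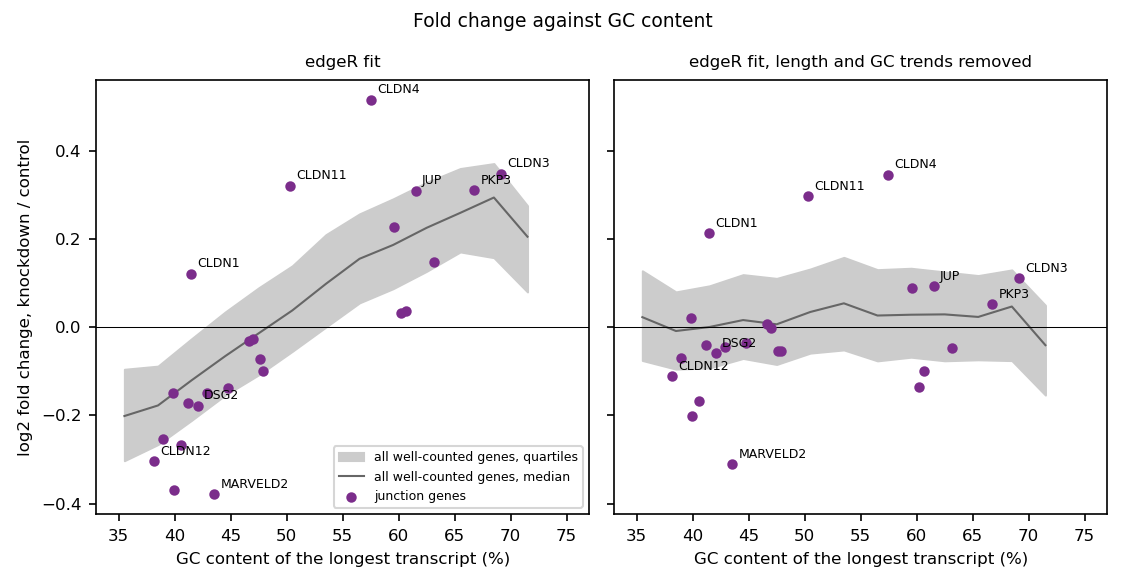
Log2 fold change of the libraries labelled PD-L1 knockdown over the control against the GC content of the longest transcript (%), for 24 of the well-counted junction genes (dots) and for all well-counted genes in bins of GC (line, median; band, quartiles), as fitted on the left and with the length and GC trends removed on the right. The dots follow the rising line on the left, and on the right CLDN4, CLDN1 and CLDN11 lie above the band and MARVELD2 lies farthest below it.

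Besides the desmosomal cadherins, several members lie beside each other with unlike levels. The outermost annotated starts of CLDN1 and CLDN16 lie 66 bases apart on chromosome 3, and the genes run in opposite directions. CLDN1 had 1015, 1087 and 1196 counts and CLDN16, a claudin of the kidney, 2, 0 and 2. On chromosome 13, GJA3 had 47, 52 and 78 counts, GJB2 had 33, 34 and 51 and GJB6 had 1, 0 and 0. On chromosome 16, CLDN9 with 17, 17 and 35 counts and CLDN6 with 5, 4 and 6 were both low. MARVELD2 and OCLN, 47962 bases apart on chromosome 5, were both expressed, OCLN with 587, 493 and 602 counts, but differed in the library labelled knockdown 2. CLDN8 and CLDN17 on chromosome 21 were both at 0. CLDN22 was at 0, and WWC2 covers it wholly on the opposite strand with 1189, 1041 and 891 counts. The use of strand in the counting is not stated, so the 0 of CLDN22 need not mean absence. CLDN24, the neighbour of CLDN22, had 4, 1 and 0 counts.

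A RefSeq promoter window, 250 bases before to 50 bases after the start on GRCh38.p14, was found for 44 of the 66 members. The 19 of them with an FPKM of at least 1 in every library had a median of 25 CpG dinucleotides in the window, with a range from 3 to 43. The 9 at 0 counts had a median of 2, from 0 to 40, and the 16 in between had 5.5, from 1 to 37. The median of 14896 protein-coding genes was 22. Among the genes described above, the windows of PERP, DSP, DSG2, CLDN11, TJP1, CLDN1 and PKP4 held 43, 37, 36, 36, 34, 31 and 31 CpG dinucleotides. Those of DSG3 and DSG1 held 6 and 3 and that of CLDN16 held 2. The CLDN16 window is that of the first RefSeq promoter listed, which need not lie at its outermost annotated start. There were exceptions in each direction, since GJD2, a connexin of neurons, had 40 with 0 counts, GJA3 had 37 with a mean FPKM of 0.743, and CLDN4 and GJA1 had 5 and 3 with mean FPKM of 4.27 and 2.37.

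The E-box CAGGTG, with its reverse complement CACCTG, is the motif bound by the repressors SNAI and ZEB. It was present in 14 of the 44 windows, or 31.8%, against 19.8% of all protein-coding windows. It occurred in 31.6% of the windows of expressed members, 33.3% of those at 0 counts and 31.3% of those in between. These shares rest on only 19, 9 and 16 windows, and a relation to level was not tested. DSG2 and DSP, among the highest, each held 2 matches. A match describes letters and not a bound site.

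**Figure D4:**
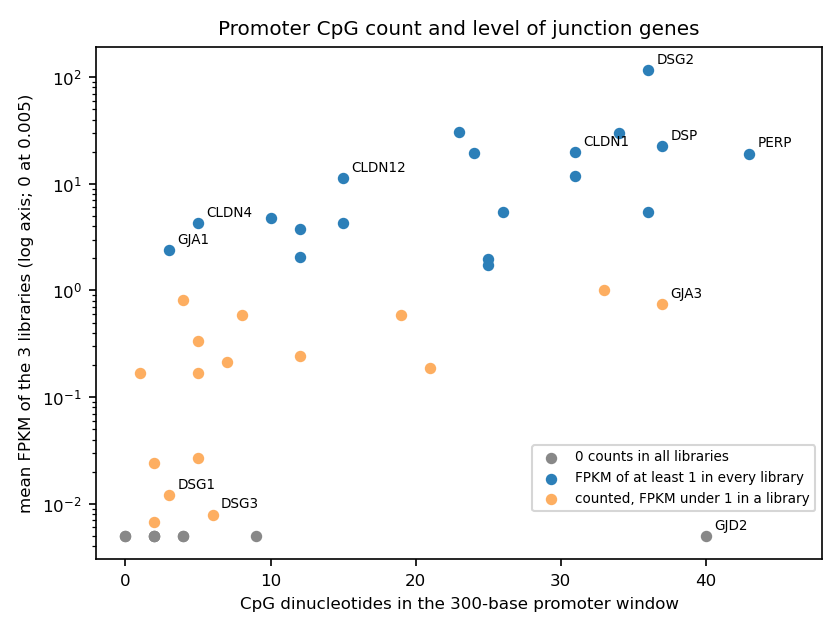
Mean FPKM of the 3 libraries (log axis) against the number of CpG dinucleotides in the promoter window for the 44 junction genes with a RefSeq promoter, coloured by whether the gene had an FPKM of at least 1 in every library, some counts or none. Expressed genes reach up to 43 CpG (PERP), and all but 1 of the genes at 0 counts, the exception being GJD2, lie below 10.

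Of 74 further genes of the adherens junction, the tight junction plaque, the desmosome's partners, the pannexins and the transcription factors of junction genes, 63 were tested. In edgeR's test 0 had an adjusted p under 0.05 and 6 an unadjusted p under 0.05, 5 on the higher and 1 on the lower side, where 0.353% and 11.7% of all genes did, and DESeq2 gave 0 at the adjusted p. The most abundant of each list were CTNNA1 and VCL of the adherens junction, with FPKM of 61.9, 63.6 and 65.2 and of 43.0, 42.7 and 45.8, LSR and AMOTL2 of the tight junction, KRT8 and KRT18 among the keratins, PANX1 and PANX2, and ESRP2 and TWIST2. PARD6A, a polarity protein at the tight junction, was counted 88, 143 and 178 times, a log2 fold change of 0.82 (SE 0.25) with an adjusted p of 0.118 in edgeR. ZEB1, a repressor of epithelial junction genes, had 484, 402 and 358 counts and -0.39 (SE 0.17) with an adjusted p of 0.316 in edgeR. Of the 6 genes above, PARD6A and ZEB1 are the only ones whose counts are given. PARD6A has 62.7% GC and ZEB1 38.5%. All well-counted genes from 61% to 64% GC had a median log2 fold change of 0.23, and those from 37% to 40% one of -0.18. The part of base composition in the differences of PARD6A and ZEB1 was not tested. GRHL2, an activator of epithelial junction genes, CDH2 and TWIST1 had 0 counts in all libraries.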

How the data were processed

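Whole-transcriptome libraries of DU145 cells were grouped by their labels into 1 control and 2 PD-L1 knockdown libraries. For each library the authors deposited raw read counts per gene, without normalization, and FPKM values, which were checked to equal the counts over gene length times a single constant for each library. Per the submitters' processing notes the tools included Bowtie2 2.0.6, TopHat2 2.0.9, Cufflinks 2.1.1 and Cuffdiff 2.1.1. Per the study's methods, libraries were made from poly(A) RNA. The counting program, its use of strand and its treatment of reads with several matches are not given in the sources used here. Gene positions match GENCODE release 29 for 58690 of 58735 genes.

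Genes with at least 10 counts over the 3 libraries (19849) entered the fit of edgeR 4.0.16 under R 4.3.3 (TMM, glmQLFit, glmQLFTest, Benjamini-Hochberg over all genes tested). A fold change is the libraries labelled PD-L1 knockdown over the control. Alternatives were DESeq2 1.42.0 size factors and its Wald test, library totals, no filter, removal of length and GC trends (20 classes each), single libraries and log2(FPKM + pseudocount) with pseudocounts of 1 and 0.1. On simulated data with 19833 genes edgeR recovered 98% of 100 genes changed 2-fold and 100% of 100 changed 4-fold, with 13 unchanged genes called. The changed genes averaged at least 100 counts, and all genes had the same spread, estimated from these data. Both simulated knockdown libraries had the same expected levels, and no GC trend was put in. The shares recovered therefore do not describe genes with fewer counts or smaller changes, or data with such a trend. Ratios of 2 libraries carry exact conditional 95% intervals on effective library sizes. Python 3.11.15 with scipy 1.17.1 and matplotlib 3.10.9 were used.

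The junction genes and all lists were chosen with earlier results of these data known. Members were named with values where they had an FPKM of at least 10 in any library, a mean of at least 100 counts, an unadjusted p under 0.05, or a neighbour among the members within 200000 bases. Others were given by name when at 0, and otherwise by count. Some genes of the rule and of the marker lists are counted in the totals but not reported here singly. CLDN10, CLDN18, GJB7, PKP1 and GJD3, and of the other junction genes PARD6A, ZEB1, GRHL2, CDH2 and TWIST1, fell outside this rule and were named after their values were seen. GC content is that of the longest GENCODE transcript, and the first RefSeq promoter listed per gene was used.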

Additional observations from a re-analysis of the deposited data

How the results depend on the processing

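No junction gene had an adjusted p under 0.05 under DESeq2 size factors, library totals, no filter on low counts, the DESeq2 Wald test or removal of length and GC trends, under which 71, 67, 51, 6 and 5 of all genes were called, against 70 in the analysis reported. At an unadjusted p under 0.05, the 5 junction genes became 0 in the DESeq2 Wald test and 0 with length and GC trends removed, while all genes went from 2329 to 455 and 1280. With an absolute log2 fold change above 1 as well, 1 appeared without the filter. The median log2 fold change of the junction genes was 0.09 without PD-L1 knockdown replicate 1 and -0.01 without PD-L1 knockdown replicate 2, each a value of 1 library against the control with no test. Of the 26 well-counted junction genes, 6 changed sign with the trends removed (among them CLDN15, CLDN23, OCLN, PKP2 and TJP3), 4 without PD-L1 knockdown replicate 1 (DSP, F11R, PKP2 and PKP4) and 2 without PD-L1 knockdown replicate 2 (CLDN15 and TJP3), none of which had an unadjusted p under 0.05. None changed sign with the other scalings, filter, test or FPKM. The 26 junction genes with an FPKM of at least 1 in every library became 33 at 0.5 and 14 at 5.

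No paired analysis was possible because the control has 1 library. Depth limits junction genes with few counts, of which 14 tested had a mean under 100. Leaving out the control was not possible.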
